A study of Mus musculus with 12 samples.

Results

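The genes described here are 9 markers of macrophages. All 9 were among the 23235 genes with expression values for mouse fetal liver and among the 24421 with values for immortalized mouse embryonic fibroblasts (MEFs). They were taken by gene symbol. C3ar1 was chosen by its higher level in G2A MEFs and F13a1 by its higher level in G2A liver, so those differences are given as descriptions without a test. The other genes are Csf1r, Cd68, Mrc1, Lyz2, C1qa, C1qb and C1qc.

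RNA sequencing compared untreated tissue and cells of genotype Rpt2G2A/G2A (called G2A) with wild type (WT). Rpt2, encoded by Psmc1, is an ATPase of the proteasome that carries a lipid, myristate, on its N-terminal glycine, and in G2A that glycine is alanine. The livers were 3 G2A and 3 WT samples of embryonic age E12.5, described as littermate pairs. The fibroblasts were 2 G2A and 3 WT libraries of immortalized MEFs, and 1 more labelled G2A sample was not analysed here. The labels give no age for the MEFs and do not say how many lines, clones or embryos they came from or how they were immortalized, so the p-values measure only the spread between these samples.

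Macrophages enter the fetal liver early and sit at the centre of erythroblastic islands, where they engulf the nuclei that maturing red cells expel. They depend on signals through the receptor encoded by Csf1r, make the complement component C1q, and carry lysosomal and scavenger proteins such as Cd68 and the mannose receptor. Complement is a cascade of plasma proteins: C1q binds a target and starts the classical pathway through the proteases C1r and C1s, cleavage of C3 releases the small peptide C3a, and C3a acts on cells through the receptor that C3ar1 encodes. Factor XIII, whose A subunit F13a1 encodes, is a transglutaminase that cross-links fibrin and is made by macrophages and by megakaryocytes, the platelet precursors.

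The sequences upstream of the start sites are shown for the 4 genes whose liver values did not overlap between genotypes (C3ar1, F13a1, Cd68 and Mrc1) and for C1qb, a gene whose liver values overlapped. Each line gives 250 bases ending just before the start site, from RefSeq's promoters of GRCm38.p6. The positions are those of the single exact match of each sequence in NCBIM37, the assembly also called mm9. Capitals mark GAGGAA on either strand, a core recognised by the myeloid factor PU.1, and TGANTCA, a core recognised by AP-1; no marked stretch overlaps another.
C3ar1, chr6:122806176-122806425, minus strand: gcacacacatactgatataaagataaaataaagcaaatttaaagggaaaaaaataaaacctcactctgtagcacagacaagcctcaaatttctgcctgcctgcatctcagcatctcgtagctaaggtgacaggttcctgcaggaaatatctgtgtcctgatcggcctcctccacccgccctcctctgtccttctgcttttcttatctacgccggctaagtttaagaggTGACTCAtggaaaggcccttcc
F13a1, chr13:37142114-37142363, minus strand: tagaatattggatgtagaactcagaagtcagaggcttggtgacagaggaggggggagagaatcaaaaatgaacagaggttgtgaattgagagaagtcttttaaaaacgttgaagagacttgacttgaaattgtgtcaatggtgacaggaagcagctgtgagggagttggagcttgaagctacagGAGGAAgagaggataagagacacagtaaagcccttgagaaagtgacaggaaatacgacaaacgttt
Cd68, chr11:69479673-69479922, minus strand: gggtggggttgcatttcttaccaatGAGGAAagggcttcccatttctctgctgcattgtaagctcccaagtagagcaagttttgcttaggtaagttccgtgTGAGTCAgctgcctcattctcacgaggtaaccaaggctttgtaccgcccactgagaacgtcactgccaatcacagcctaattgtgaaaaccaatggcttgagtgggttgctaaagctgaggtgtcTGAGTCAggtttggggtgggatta
Mrc1, chr2:14150791-14151040, plus strand: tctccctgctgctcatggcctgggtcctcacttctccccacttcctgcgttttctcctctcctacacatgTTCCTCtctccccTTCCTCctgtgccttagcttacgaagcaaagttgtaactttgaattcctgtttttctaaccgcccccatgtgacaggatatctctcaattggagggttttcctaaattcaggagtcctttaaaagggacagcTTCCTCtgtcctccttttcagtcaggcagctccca
C1qb, chr4:136442116-136442365, minus strand: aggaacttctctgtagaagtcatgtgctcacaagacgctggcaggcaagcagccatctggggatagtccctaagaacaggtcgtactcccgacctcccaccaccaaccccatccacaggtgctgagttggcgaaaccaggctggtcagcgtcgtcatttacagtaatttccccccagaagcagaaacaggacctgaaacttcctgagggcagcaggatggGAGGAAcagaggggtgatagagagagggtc

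RefSeq promoters were given for 7 of the 9 genes, all but C1qa and Csf1r, with 2 start sites for F13a1. GAGGAA was present in 5 of these 8 upstream windows and in 23.3% of 32851 windows of the same length over all genes. TGANTCA was present in 2 of the 8, those of C3ar1 and Cd68, and in 6.75% of all windows. The C3ar1 match began 22 bases before the start site. The F13a1 match to GAGGAA began 66 bases before the start site nearest the annotated 5' end, and the C1qb match 30 bases before it. These are matches of letters only. The 3 C1q genes are neighbours within 18.7 kb of chromosome 4 (positions 136436044 to 136454718 of NCBIM37), all on the minus strand.

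Some libraries stood apart before any single gene was examined. On the first principal component of the liver values (37.9% of the variance) G2A livers 1, 2 and 3 lay at -30.6, -34.9 and 7.91, against 13.3, 23.3 and 21.1 for the WT livers. On that of the MEF values (73.4%) the G2A libraries lay at -51.5 and -55.2, WT MEFs 1 and 2 at 87.2 and 92.0, and WT MEF 3 at -72.5, on the G2A side. Results are therefore also given without G2A liver 3 or WT MEF 3. The liver values are FPKM, fragments scaled by transcript length and library size, so the read depth behind them is unknown. The MEF values are reads scaled by 1 factor per library, with 37261504 and 37051959 gene reads in G2A libraries 1 and 2 and 36415586 to 37695116 in the WT libraries. Psmc1 was at 145 to 161 FPKM in G2A and 178 to 181 in WT livers, and at 10660 and 10910 normalized reads in G2A and 6485 to 8589 in WT MEFs. The glycine change itself cannot be read from expression levels.

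The first comparison was of macrophage mRNAs in G2A against WT fetal liver. All 9 genes were detected in all 6 livers. F13a1 was about 2 times as high in G2A liver, C3ar1, Cd68 and Mrc1 were higher by smaller amounts without overlap between the groups, Csf1r and Lyz2 overlapped, and the 3 C1q genes were lower on average with overlap. Differences were tested with limma on log2(FPKM + 1), with p-values adjusted over 12938 genes by Benjamini-Hochberg and a threshold of 0.05. Of the 8 genes tested, that is all but F13a1, 0 passed, beside 0.0232% of all genes (0.0155% higher and 0.00773% lower in G2A). By unadjusted p under 0.05, 2 were higher and 0 lower, beside 9.07% of all genes higher and 12.4% lower. Without overlap, 3 were higher and 0 lower, beside 11.8% and 15.7% of all genes. Their median log2 fold change was 0.11, against 0.01 over all genes. In bulk liver a change in the number of macrophages and a change of RNA per macrophage cannot be told apart.

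**Figure D1:**
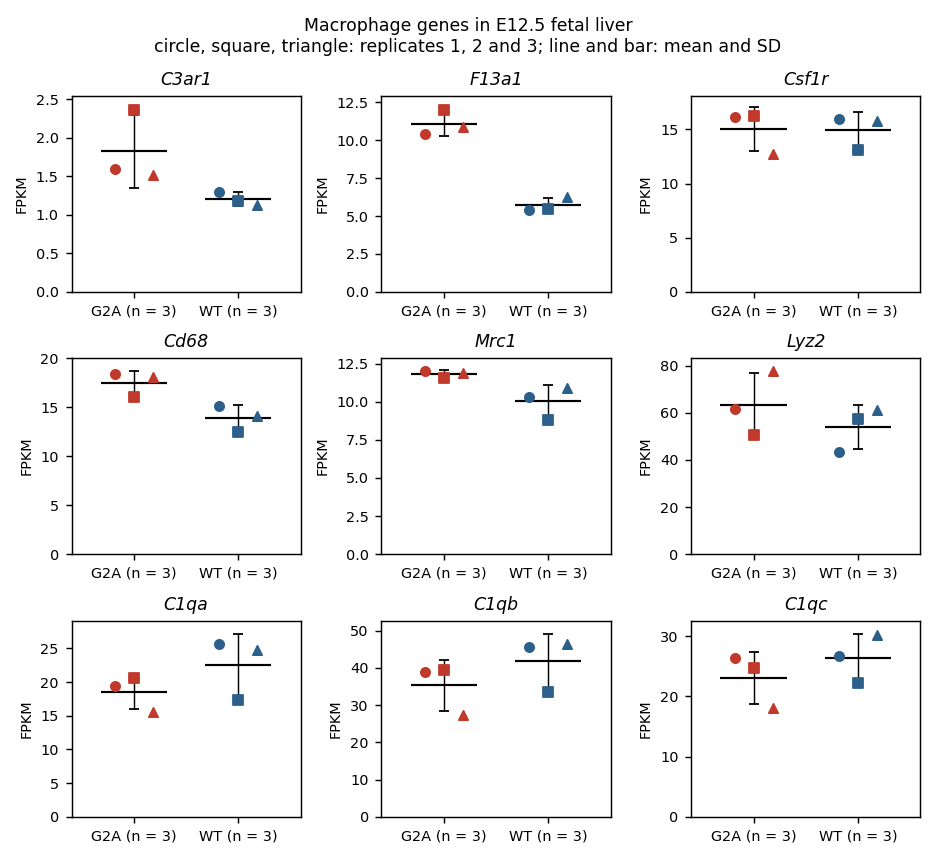
FPKM of the 9 macrophage genes in each E12.5 liver, with G2A livers left of WT livers, points for single livers, and lines and bars for mean and SD (n = 3 each). The G2A values lie above all WT values for C3ar1, F13a1, Cd68 and Mrc1, and G2A liver 3 has the lowest value of the 6 livers for Csf1r, C1qa, C1qb and C1qc.

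F13a1 was at 10.4, 12 and 10.9 FPKM in G2A livers 1, 2 and 3 and at 5.42, 5.45 and 6.24 FPKM in the WT livers. Every G2A liver was well above every WT liver, with 1.83, 2.1 and 1.91 times the WT mean. The means were 11.1 ± 0.807 FPKM in G2A and 5.71 ± 0.462 FPKM in WT livers (SD, n = 3 each), and the log2 fold change was 0.85 (SE 0.09). Without G2A liver 3 it was 0.86. F13a1 was chosen for this difference, and no test is given.

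C3ar1 was near the lowest level that was tested, at 1.59, 2.37 and 1.51 FPKM in G2A livers and at 1.30, 1.18 and 1.13 FPKM in WT livers. The G2A values lay above the WT values, with G2A liver 2 highest. The means were 1.82 ± 0.471 FPKM in G2A and 1.21 ± 0.087 FPKM in WT livers (SD, n = 3 each). On the log2(FPKM + 1) scale, which understates changes at such low levels, the fold change was 0.34 (SE 0.14, 95% interval -0.002 to 0.69, limma adjusted p = 0.235). It was 0.21 without G2A liver 2 (adjusted p = 0.513) and 0.42 without G2A liver 3 (adjusted p = 0.0817), and adjusted p ran between 0.0654 and 0.513 over all alternatives.

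Cd68, a glycoprotein of macrophage lysosomes and endosomes, was at 18.4, 16.1 and 18.1 FPKM in G2A livers and at 15.2, 12.46 and 14.1 FPKM in WT livers. The groups did not overlap, though G2A liver 2 and WT liver 1 were close. The log2 fold change was 0.31 (SE 0.09, 95% interval 0.09 to 0.54, limma adjusted p = 0.145). Mrc1, the mannose receptor, which in liver is also carried by sinusoidal endothelium, was at 12.03, 11.5 and 11.9 FPKM in G2A livers and at 10.3, 8.82 and 10.9 FPKM in WT livers. Its 3 G2A values were tightly grouped above the more spread WT values. The log2 fold change was 0.22 (SE 0.09, 95% interval 0.01 to 0.44, adjusted p = 0.222), and 0.14 without WT liver 2 (adjusted p = 0.44). Both genes passed only where limma weighted the libraries (Cd68 adjusted p = 0.00888, Mrc1 adjusted p = 0.0407), a setting in which 46.8% of all genes passed. Over all alternatives their adjusted p ran up to 0.384 for Cd68 and 0.46 for Mrc1.

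Csf1r, the receptor for the growth factors CSF1 and IL-34, was at 16.2, 16.2 and 12.7 FPKM in G2A livers and at 16.0, 13.1 and 15.8 FPKM in WT livers. Each group held one lower library, G2A liver 3 and WT liver 2, and the groups overlapped. The means were 15.0 ± 2.02 FPKM in G2A and 15.0 ± 1.61 FPKM in WT livers (SD, n = 3 each), and the log2 fold change was 0.003 with a 95% interval of -0.3 to 0.3 (adjusted p = 0.992). Lyz2, lysozyme M of macrophages, monocytes and granulocytes, was at 61.6, 50.6 and 77.5 FPKM in G2A livers and at 43.4, 57.2 and 61.3 FPKM in WT livers. G2A liver 3 was the highest and WT liver 1 the lowest, with overlap between. The log2 fold change was 0.22 (95% interval -0.24 to 0.67, adjusted p = 0.524) and 0.06 without G2A liver 3. Summed markers of monocytes and granulocytes, cells that also express Lyz2, were likewise highest in G2A liver 3, at 489, 360 and 828 FPKM in G2A livers and 275, 469 and 573 FPKM in WT livers (21 genes); their part in the Lyz2 values was not tested. Lyz1, a near-identical neighbour of Lyz2 that could share reads with it, was at 3.58 to 4.96 FPKM in G2A and 3.75 to 4.03 FPKM in WT livers.

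The 3 C1q genes, which encode the A, B and C chains of one protein, had their lowest values in G2A liver 3. C1qa was at 19.4, 20.6 and 15.6 FPKM in G2A livers and at 25.7, 17.3 and 24.7 FPKM in WT livers. C1qb was at 38.9, 39.6 and 27.4 FPKM in G2A livers and at 45.7, 33.5 and 46.4 FPKM in WT livers. C1qc was at 26.3, 24.7 and 18.1 FPKM in G2A livers and at 26.7, 22.2 and 30.2 FPKM in WT livers. For each chain the order was nearly the same, with WT livers 1 and 3 high, WT liver 2 and G2A liver 3 low, and G2A livers 1 and 2 between. The log2 fold changes were -0.26 for C1qa (95% interval -0.68 to 0.16, limma adjusted p = 0.419), -0.24 for C1qb (-0.69 to 0.2, adjusted p = 0.473) and -0.2 for C1qc (-0.6 to 0.21, adjusted p = 0.525). Without G2A liver 3 they were -0.15, -0.08 and -0.04, and without WT liver 2 they were -0.43, -0.39 and -0.31.

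The chains kept nearly fixed proportions in every liver. C1qa was at 0.499, 0.521 and 0.569 of the C1qb level in G2A livers and 0.562, 0.517 and 0.533 in WT livers. C1qc was at 0.676, 0.625 and 0.659 of it in G2A livers and 0.585, 0.664 and 0.652 in WT livers. Neither ratio separated the genotypes. Across the 6 livers, on log2(FPKM + 1), C1qa and C1qb had a Pearson r of 0.97 (exact permutation p = 0.00278, adjusted p = 0.0292 over the 21 pairs of the 7 genes other than C3ar1 and F13a1) and a Spearman rho of 0.94 (exact permutation p = 0.0167, adjusted p = 0.117). C1qb and C1qc gave the same r, p and rho, and without the 2 livers farthest from the median r was 0.99 for the first pair and 0.89 for the second. C1qa and C1qc gave an r of 0.89 (exact permutation p = 0.0167, adjusted p = 0.0875) and a rho of 0.89 (exact permutation p = 0.0333, adjusted p = 0.175), and r was 0.93 without 2 livers. Cd68 and Mrc1 both separated the genotypes, so a correlation pooled over the 6 livers would restate that difference and is not given. Csf1r and C1qb had r = 0.87 (exact permutation p = 0.0319, adjusted p = 0.117) and rho = 0.49 (exact permutation p = 0.356, adjusted p = 0.679), and r turned to -0.93 without the 2 livers farthest from the median, so that relation rested on those livers, as did those of Csf1r with C1qa and C1qc.

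**Figure D2:**
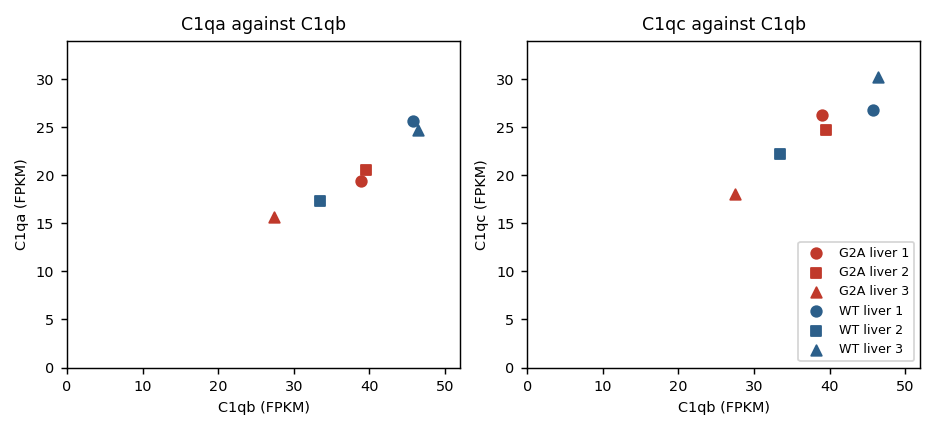
FPKM of C1qa (left) and C1qc (right) against C1qb in the 6 livers, G2A in red and WT in blue, with both axes from 0. The points of both genotypes lie along 1 line, with G2A liver 3 and WT liver 2 at the low end and WT livers 1 and 3 at the high end.

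Setting genes against Csf1r within a library gives levels per unit of another macrophage mRNA. The summed C1q chains were at 5.24, 5.24 and 4.81 times the Csf1r level in G2A livers and 6.15, 5.57 and 6.41 times in WT livers, with every G2A value below every WT value. F13a1 was at 0.645, 0.74 and 0.858 times the Csf1r level in G2A livers and 0.34, 0.416 and 0.395 times in WT livers. C3ar1 was at 0.0984, 0.146 and 0.119 times in G2A livers and 0.0815, 0.0901 and 0.0717 times in WT livers. Cd68 was at 1.14, 0.994 and 1.42 times in G2A livers and 0.949, 0.95 and 0.895 times in WT livers. All these ratios separated the genotypes without overlap. Ratios of Lyz2 and Mrc1 to Csf1r were not set up. By their own levels 27.5% of all tested genes separated the genotypes, and the share of ratios to Csf1r that do so was not computed. The separation for F13a1 follows from its choice. The ratios were set up after the values were seen, and no test is given.

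The liver carried the markers of its labelled tissue, with the hepatoblast protein Afp at 5114 to 6966 FPKM in G2A and 4523 to 5772 FPKM in WT livers, and it held macrophage RNA in every library. Emr1, the gene of the macrophage antigen F4/80, was at 5.90, 4.89 and 4.57 FPKM in G2A livers and at 6.49, 4.72 and 8.18 FPKM in WT livers, with overlap. Tyrobp, an adaptor of myeloid receptors, was at 38.5 to 48.5 FPKM in G2A and 36.9 to 44.7 FPKM in WT livers, and the adaptor Fcer1g at 52.8 to 58.4 FPKM in G2A and 53.8 to 59.4 FPKM in WT livers. Sfpi1, which encodes PU.1, was at 15.5, 13.4 and 21.2 FPKM in G2A livers and at 16.8, 18.0 and 17.9 FPKM in WT livers. These 4 genes overlapped between the genotypes, while the marker Aif1 was lower in every G2A liver, at 3.55, 3.39 and 3.79 FPKM in G2A and 3.84, 4.49 and 4.93 FPKM in WT livers. Erythroid markers, of the cells that this tissue produces, summed to 13310, 12110 and 25460 FPKM in G2A livers and 25130, 16270 and 25710 FPKM in WT livers (20 genes). Whether these levels touched the macrophage values was not tested.

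A list of 46 other macrophage genes was all found in the liver values and 39 were high enough to test. By limma 0 of the 39 passed, 0 were higher and 1 was lower at an unadjusted p under 0.05 (9.07% and 12.4% of all genes), and 2 were higher and 4 lower without overlap, beside 27.5% of all genes without overlap in either direction. The list median was 0.05 and its summed level 490 to 519 FPKM in G2A and 436 to 514 FPKM in WT livers. Without G2A liver 3, 2 of the 39 were higher and 1 lower, beside 24.5% of all genes. The smallest p belonged to Spic, a transcription factor of red-pulp and other iron-recycling macrophages. Spic was at 2.67, 1.38 and 2.45 FPKM in G2A livers and at 3.92, 2.90 and 5.09 FPKM in WT livers (log2 fold change -0.65, adjusted p = 0.183). Each G2A liver was below each WT liver. Next came Maf, which overlapped, with 14.1 ± 2.36 FPKM in G2A and 10.8 ± 1.65 FPKM in WT livers (SD, n = 3 each). Aif1 averaged 3.57 ± 0.199 FPKM in G2A and 4.42 ± 0.547 FPKM in WT livers, and Irf8, also without overlap, 5.23 ± 0.0822 FPKM in G2A and 4.49 ± 0.341 FPKM in WT livers. Maf and Irf8 are transcription factors of macrophages and Aif1 is a calcium-binding protein of theirs. Their adjusted p-values were 0.247, 0.251 and 0.264.

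Csf1, the ligand of the Csf1r receptor, was at 8.19, 11.1 and 9.53 FPKM in G2A livers and at 8.24, 7.35 and 7.16 FPKM in WT livers (adjusted p = 0.221, log2 fold change 0.3). G2A livers 2 and 3 exceeded all WT livers and G2A liver 1 did not. The second ligand, Il34, was at 0.23 FPKM or less in every liver and was not tested. In the list of ligands and signalling genes 0 of 11 passed, beside 0.0232% of all genes. At an unadjusted p under 0.05, 1 was higher and 0 lower, beside 9.07% and 12.4% of all genes.

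Complement genes were split in direction. Of 38 listed, 27 were tested and 0 passed, with a median of 0.04. At an unadjusted p under 0.05, 2 were higher and 1 lower, beside 9.07% and 12.4% of all genes, counts too small to tell from those shares. C3, the precursor of C3a and in liver a product of hepatic cells, was at 60.7, 72.0 and 102.6 FPKM in G2A livers and at 58.4, 70.0 and 83.4 FPKM in WT livers, with overlap. The receptor for the related peptide C5a, C5ar1, was at 1.44, 1.87 and 1.71 FPKM in G2A livers and at 1.21, 0.675 and 1.12 FPKM in WT livers (log2 fold change 0.43, adjusted p = 0.177). Like C3ar1 it was at a low level with all G2A livers above all WT livers. Cd93, a C-type lectin of endothelium and myeloid cells, was at 8.22, 9.74 and 8.83 FPKM in G2A livers and at 7.18, 6.80 and 6.52 FPKM in WT livers (log2 fold change 0.34, adjusted p = 0.123). C1qbp, a mostly mitochondrial protein named for binding C1q, was lower without overlap, at 218 ± 22.8 FPKM in G2A and 276 ± 23.1 FPKM in WT livers (log2 fold change -0.34, adjusted p = 0.139). Without G2A liver 3, 1 of 26 tested complement genes was higher and 4 were lower, beside 24.5% of all genes.

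Among coagulation factors and transglutaminases, the families of F13a1, 0 of 22 tested genes passed, beside 0.0232% of all genes (median log2 fold change -0.06). At an unadjusted p under 0.05, 2 were higher and 0 lower, beside 9.07% and 12.4% of all genes. Without overlap, 3 were higher and 0 lower, beside 11.8% and 15.7% of all genes. F13b, which encodes the carrier subunit of plasma factor XIII and is made by hepatic cells, was at 2.53, 2.36 and 5.65 FPKM in G2A livers and at 3.10, 3.93 and 4.16 FPKM in WT livers. It overlapped, with G2A liver 3 the highest of the 6. The other transglutaminase with the smallest p was Tgm1, known for cross-linking the envelope of keratinocytes, at 4.03, 7.82 and 3.88 FPKM in G2A livers and at 1.13, 1.72 and 2.33 FPKM in WT livers (log2 fold change 1.16, adjusted p = 0.115). The G2A values were all above the WT values. Tgm2, the tissue transglutaminase, was at 55.6 ± 8.46 FPKM in G2A and 62.5 ± 4.48 FPKM in WT livers, with overlap. F2, prothrombin, was at 115 ± 15.1 FPKM in G2A and 92.0 ± 10.2 FPKM in WT livers (adjusted p = 0.204).

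F13a1 is also made by megakaryocytes. Of 18 megakaryocyte and platelet markers, 17 were tested and 0 passed (1 higher and 0 lower at an unadjusted p under 0.05, beside 9.07% and 12.4% of all genes; median 0.13), and their sum was 774 to 1046 FPKM in G2A and 823 to 917 FPKM in WT livers. Pf4, platelet factor 4, was at 334, 353 and 417 FPKM in G2A livers and at 334, 387 and 308 FPKM in WT livers. Itga2b, the platelet integrin chain, was at 26.2 to 38.4 FPKM in G2A and 26.9 to 32.3 FPKM in WT livers. Both overlapped.

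Genes of the lysosome, the compartment of Cd68, were among the groups with more genes higher. Of 17 lysosomal genes tested 0 passed by limma, 7 were higher and 0 lower at an unadjusted p under 0.05, beside 9.07% and 12.4% of all genes, and 7 were higher without overlap, beside 11.8% of all genes. Cd63, a tetraspanin of late endosomes, was at 155, 181 and 156 FPKM in G2A livers and at 119, 116 and 118 FPKM in WT livers (log2 fold change 0.47, adjusted p = 0.0902). Lamp2, a lysosomal membrane protein of most cells, averaged 60.3 ± 2.50 FPKM in G2A and 46.3 ± 1.93 FPKM in WT livers (SD, n = 3 each; limma log2 fold change 0.37, adjusted p = 0.0902). Without G2A liver 3, 6 of the 17 were higher and 0 lower, beside 24.5% of all genes in either direction. Of 20 genes of phagocytosis and nucleus clearance, 0 passed and 3 were higher at an unadjusted p under 0.05, beside 9.07% of all genes. They included Hmox1, heme oxygenase 1, at 185, 164 and 165 FPKM in G2A livers and 116, 112 and 108 FPKM in WT livers (log2 fold change 0.61, adjusted p = 0.0811), and Stab1, a scavenger receptor of macrophages and sinusoidal endothelium, at 12.2 ± 0.639 FPKM in G2A and 9.29 ± 0.789 FPKM in WT livers (log2 fold change 0.36, adjusted p = 0.114). Of 13 tested C-type lectin and scavenger receptors, a mixed group not limited to the family of Mrc1, 0 passed (median 0.1). At an unadjusted p under 0.05, 4 were higher and 1 lower, beside 9.07% and 12.4% of all genes. Of 14 endothelial markers, 5 were higher and 0 lower at an unadjusted p under 0.05, beside 9.07% and 12.4% of all genes, and their sum was 187 to 201 FPKM in G2A and 162 to 178 FPKM in WT livers; their part in Mrc1, Stab1 and Cd93 was not tested. Fibroblast markers summed to 2067, 2855 and 1460 FPKM in G2A livers and 1021, 763 and 1026 FPKM in WT livers (16 genes, 10 higher and 0 lower at an unadjusted p under 0.05, beside 9.07% and 12.4% of all genes).

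**Figure D3:**
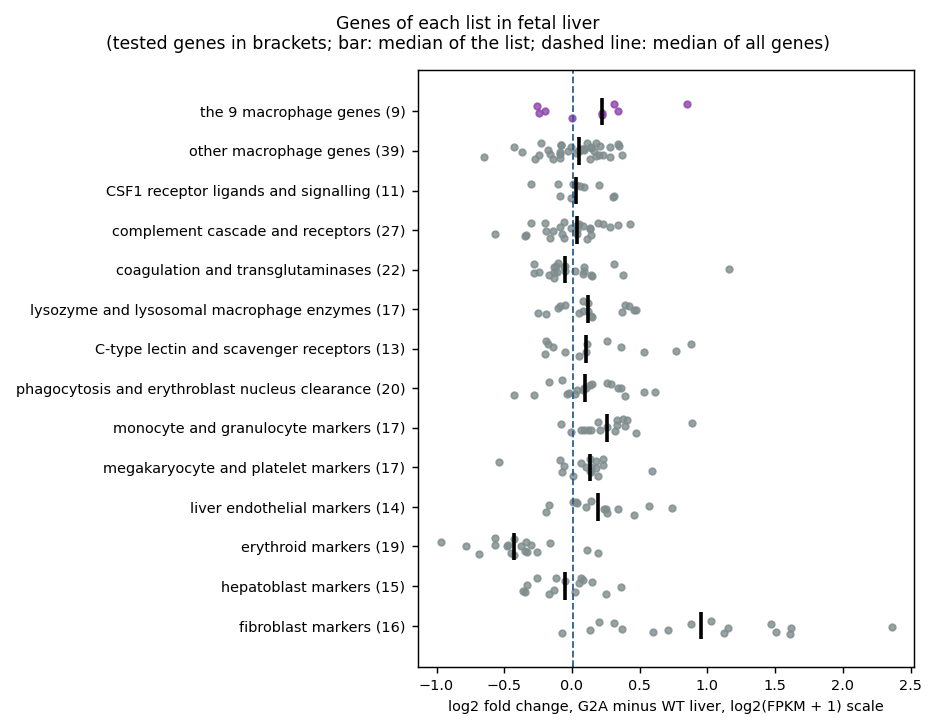
Log2 fold changes, G2A minus WT liver, of single genes (points) in each list, with list medians as black bars, the number of tested genes in brackets and the median of all genes (0.01) as a dashed line. The lists of other macrophage genes, complement and coagulation centre near 0, erythroid markers at -0.43 and fibroblast markers at 0.96. The row of the 9 macrophage genes includes F13a1 at 0.85, which was chosen for its rise in G2A liver. The median bar of that row is 0.22 with F13a1, against 0.11 over the other 8 genes.

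By pattern over the 6 livers, among 12837 genes with a mean of at least 1 FPKM, the genes with the highest Pearson r to the mean C1q profile were 1700011J10Rik (0.983), Rab3ip (0.977), H3f3b (0.977), Sugt1 (0.973) and Zmynd17 (0.968). None of them is on the macrophage lists. The genes most like F13a1 were Derl3 (0.999), Iqgap1 (0.997), H2-Ab1 (0.995), Plaur (0.994) and Bmp8b (0.992). For F13a1 the livers fall into the 2 genotypes, so this likeness mostly measures a difference between genotypes and is given as a description. H2-Ab1, an MHC class II chain of antigen-presenting cells, was at 3.49, 3.89 and 3.82 FPKM in G2A livers and 1.13, 1.32 and 1.58 FPKM in WT livers. Plaur, the urokinase receptor of myeloid and other cells, was at 4.77 ± 0.494 FPKM in G2A and 2.54 ± 0.267 FPKM in WT livers (SD, n = 3 each). All libraries share 1 normalization, and many genes differ between the genotypes in this way.

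The second comparison asked the same of immortalized MEFs, which are connective tissue cells and not macrophages, though they expressed some genes of the macrophage lists. C3ar1 was high in both G2A libraries and nearly absent in WT, Csf1r was higher in G2A, Cd68 was highest in WT MEF 3, and the other 6 genes were at a few reads in every library. Only C3ar1, Csf1r and Cd68 reached 10 normalized reads in at least 2 libraries, the minimum for testing, and C3ar1 and Csf1r did so only because their G2A libraries were high, since at most 1 WT library reached it; no count over these genes is read as a result. Of 13241 genes tested by limma 0 passed (0%), with 14.4% at an unadjusted p under 0.05 (6.9% higher and 7.48% lower), 0 passing by edgeR and 1028 by DESeq2 on the recovered reads. Without WT MEF 3, 3076 of 12963 passed (23.7%).

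**Figure D4:**
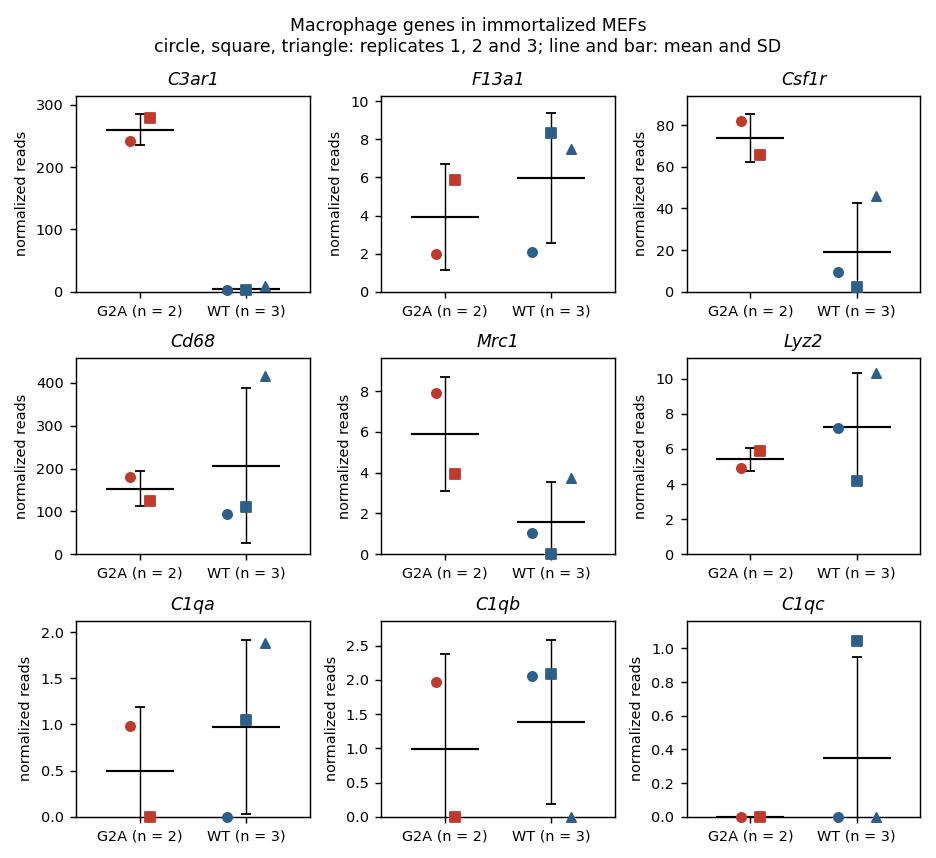
Normalized reads of the 9 macrophage genes in each MEF library, with G2A libraries left of WT libraries, points for single libraries, and lines and bars for mean and SD; each panel has its own scale from 0. C3ar1 is above 240 in both G2A libraries and below 10 in the WT libraries, Cd68 and Csf1r are highest among WT libraries in WT MEF 3, and the C1q panels span about 2 reads.

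C3ar1 was at 243 and 278 normalized reads in the G2A MEFs (246 and 284 reads) and at 2.06, 2.09 and 9.40 in the WT MEFs (2, 2 and 10 reads). Both G2A libraries were far above all WT libraries, and WT MEF 3 was the highest of the WT. The means were 260.5 ± 25.3 normalized reads in G2A (SD, n = 2) and 4.52 ± 4.23 in WT (SD, n = 3), a ratio of 57.7, and a ratio of 126 against WT MEFs 1 and 2 alone. The log2 fold change on log2(normalized reads + 1) was 5.82, and 6.41 without WT MEF 3. This difference chose the gene, and no test is given.

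Csf1r was at 81.8 and 65.7 normalized reads in the G2A MEFs and at 9.27, 2.09 and 46.1 in the WT MEFs. Both G2A libraries were above every WT library, as for 18.9% of all genes tested (36.8% without overlap in either direction), and WT MEF 3 was the nearest to them. The log2 fold change was 2.7 (SE 1.2). It was 1.76 without WT MEF 2, 1.93 by edgeR, 1.94 by DESeq2 and 3.72 without WT MEF 3. It lay between 1.76 and 3.72 over all alternatives. Among the WT libraries only WT MEF 3 was at the minimum for testing. Csf1r was thus tested only through its G2A libraries, so these values are descriptions and no test is given. Csf1, the ligand, was abundant in all MEFs, at 20470 and 20590 normalized reads in G2A and 25770, 35050 and 13990 in WT, with overlap.

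Cd68 was at 181 and 124 normalized reads in the G2A MEFs and at 93.8, 111 and 416 in the WT MEFs. WT MEF 3 held the highest value and the G2A libraries lay above WT MEFs 1 and 2. The log2 fold change was -0.12 (SE 0.71, 95% interval -1.92 to 1.67, limma adjusted p = 0.946) and turned to 0.55 without WT MEF 3 (adjusted p = 0.209).

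The other 6 genes were counted in few reads and were not tested. F13a1 had 2 and 6 reads in the G2A MEFs and 2, 8 and 8 in the WT MEFs. Lyz2 had 5 and 6 reads in G2A and 7, 4 and 11 in WT, and Mrc1 had 8 and 4 reads in G2A and 1, 0 and 4 in WT. C1qa had 1 and 0 reads in G2A and 0, 1 and 2 in WT. C1qb had 2 and 0 reads in G2A and 2, 2 and 0 in WT. C1qc had no read in either G2A library and 0, 1 and 0 in WT. At these counts, where 0 reads in a library allow up to 3, a difference between genotypes was not detectable.

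The MEFs carried fibroblast markers, with Col1a1 at 147900 and 147400 normalized reads in G2A and 251300 to 367200 in WT. Most defining genes of macrophages had few or no reads. Exceptions were in WT MEF 3, with 86 reads of Mpeg1 and with Irf8 and Fcgr1 at 13.2 and 12.2 normalized reads. Tyrobp had 0 reads in all 5 libraries. Adgre1, the F4/80 gene, had 0 and 0 reads in G2A and 2, 0 and 0 in WT; Spi1, which encodes PU.1, had 2 and 0 in G2A and 0 in each WT library; Ptprc, the pan-leukocyte antigen CD45, had 0 and 0 in G2A and 2, 0 and 2 in WT. Of the list of 46 other macrophage genes, 33 did not reach the minimum and 6 were at 0 in all libraries. Of the 13 tested 0 passed by limma, 0 were higher and 2 lower at an unadjusted p under 0.05, beside 6.9% and 7.48% of all genes, and the median was -0.27, against 0.01 over all genes. Without WT MEF 3, 1 of these was higher and 3 were lower, beside 23.7% of all genes in either direction. The summed list was at 53030 and 54620 normalized reads in G2A and 56440 to 62390 in WT, most of it from genes that fibroblasts also express, such as the receptor kinase Axl at 31270 and 31080 in G2A and 24960 to 34570 in WT.

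The list also holds Maf, a transcription factor of macrophages that was expressed in these MEFs. Maf was at 843 and 639 normalized reads in G2A and at 1858, 1013 and 1491 in WT (log2 fold change -0.94, limma adjusted p = 0.303). It did not pass, although both G2A libraries lay below all WT libraries. Gpnmb, a lysosomal glycoprotein of macrophages and pigment cells, was at 927 and 574 in G2A and at 2228, 933 and 6158 in WT (adjusted p = 0.396). Mpeg1, a pore-forming protein of macrophages, had 2 and 0 reads in G2A and 6, 0 and 86 in WT. Both Gpnmb and Mpeg1 were highest in WT MEF 3, as Cd68 was.

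C1ra and C1s1 encode mouse forms of the proteases that act with C1q. C1ra was at 612 and 432 normalized reads in G2A and at 2518, 1410 and 4272 in WT (log2 fold change -2.26, limma adjusted p = 0.269). C1s1 was at 292 and 256 in G2A and at 1973, 788 and 4387 in WT (log2 fold change -2.79, adjusted p = 0.272). C1rb, a close copy of C1ra that could share reads with it, was at 5.92 and 3.92 in G2A and 24.7, 16.7 and 47.0 in WT. For all 3 both G2A libraries lay below every WT library, and C1ra and C1s1 did not pass. C1rb reached the minimum for testing only through its WT libraries, so its values are a description. C3 was at 21.7 and 7.84 in G2A and 28.9, 33.4 and 67.7 in WT, also without overlap. Of 19 complement genes tested in MEFs 0 passed, 1 was higher and 3 were lower at an unadjusted p under 0.05 (6.9% and 7.48% of all genes). Without WT MEF 3, 3 of 18 were higher and 5 lower, beside 23.7% of all genes. These counts include genes such as C1rb that reached the minimum only through their WT libraries, so they are not read as a result. C5ar1 had no more than 2.09 normalized reads in any library.

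Mcpt8, a protease of basophils, showed a difference of the kind seen for C3ar1, at 148 and 166 normalized reads in the G2A MEFs and at 4.12, 9.39 and 5.64 in the WT MEFs (log2 fold change 4.48, a description, since like C3ar1 it reached the minimum only through its G2A libraries). Both G2A libraries were far above the 3 WT libraries. The other tested gene of the list of 10 mast cell and basophil markers was Hdc, at 0 and 2.94 in G2A and 4.12, 18.8 and 80.8 in WT. Hdc reached the minimum only through its WT libraries, so its values too are a description. In all libraries 5 markers were at 0.

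**Figure D5:**
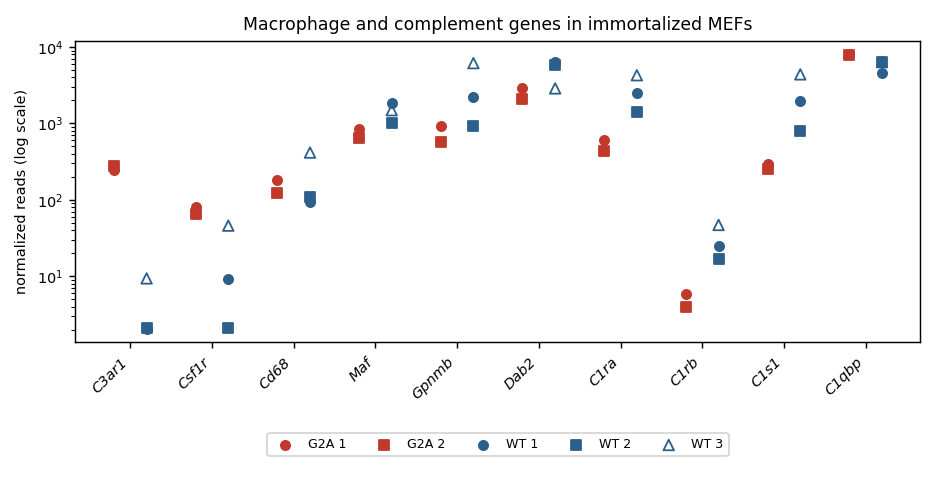
Normalized reads on a log scale for C3ar1, Csf1r and Cd68 and for 7 macrophage and complement genes among those with the smallest p in MEFs, G2A libraries (red) left of WT libraries (blue), with WT MEF 3 as an open triangle. WT MEF 3 holds the highest WT value for C3ar1, Csf1r, Cd68, Gpnmb, C1ra, C1rb and C1s1, and both G2A libraries lie below every WT library for Maf, Gpnmb, C1ra, C1rb and C1s1. C1rb reached the minimum for testing only through its WT libraries, and C3ar1 and Csf1r only through their G2A libraries.

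The G2A effects in liver and in MEFs were set side by side for the genes tested in both. C3ar1 had a log2 fold change of 0.34 in liver and 5.82 in MEFs, a difference of -5.48 that follows from its choice and is not tested. For Csf1r they were 0.003 and 2.7, a difference of -2.7 (SE 1.2), and -3.72 without WT MEF 3. In MEFs Csf1r reached the minimum only through its G2A libraries, so these are descriptions and no test is given. For Cd68 the G2A effects were 0.31 and -0.12, a difference of 0.44 (SE 0.72, adjusted p = 0.75). The adjustment ran over the 10818 genes tested in both, of which 2.21% passed, 1.34% with a positive and 0.869% with a negative difference. Over all alternatives the difference for Csf1r ran between -3.72 and -1.75. F13a1, about 2 times as high in G2A liver, was at 8 reads or fewer in every MEF library, so its effect could not be compared.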

How the data were processed

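The deposited tables hold 6 liver and 5 MEF libraries, matched to samples by the genotype and number in each column name. Per the labels' protocols, 50 bp reads were mapped to mm9 with TopHat; the submitters' processing notes name TopHat2 (2.1.1) and Cufflinks (2.2.1), and both mm9 and mm10. No source used here gives the annotation, the counting tool or the use of strand. The liver values deposited by the authors are read as FPKM from the named tool and the values, since the header names no unit. The MEF values deposited by the authors are a normalized signal per gene: 100% were whole reads, within 0.01 reads, over 1 factor per library (0.958 to 1.06).

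In each table, limma (3.58.1; R 4.3.3) compared genotypes on log2(value + 1) with a variance trend. Tested genes had at least 1 FPKM in 3 livers or 10 normalized reads in 2 MEF libraries. Differences between tissues were divided by their joint standard error (Satterthwaite). Alternatives on the recovered MEF reads were edgeR 4.0.16 (quasi-likelihood) and DESeq2 1.42.0. Other alternatives were another pseudocount, other filters, rescaling, library weights, a replicate block and leaving out each library. The fits were also run on simulated data, and the outcome is not given here. Named were the 9 genes, the genes of each list with the smallest p (4 for macrophage, complement, coagulation and CSF1 lists, 2 for others), of which not all are described, and the 5 most alike in pattern. Ligands, receptors, defining markers and relatives of the 9 genes, and the ratios to Csf1r, were added after their values were seen. The genes and lists were chosen with earlier results of these data known. Older symbols were matched through RefSeq synonyms. Gene positions are from NCBIM37.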

Additional observations from a re-analysis of the deposited data

Results flagged for a closer look

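Of 39 list genes selected for their small p in either tissue and tested in both, 3 passed the test of the difference between liver and MEFs. The p-values were adjusted over 10818 genes, of which 2.21% passed. The selection used the same G2A effects that form the difference, so it favours large differences. The 3 of 39 can therefore not be set against that share, and the test is no independent support. Col3a1, a fibrillar collagen chain, had a log2 fold change of 1.12 in liver and -2.24 in MEFs, a difference of 3.36 (adjusted p = 0.0297). Flt1, a VEGF receptor, had 0.74 and -1.46, a difference of 2.2 (adjusted p = 0.0337). Colec12, a scavenger receptor with a collagen-like stem, had 0.88 and -0.83, a difference of 1.71 (adjusted p = 0.0361). Of 14 alternatives, Col3a1 passed in 11, Flt1 in 9 and Colec12 in 6, with the difference positive in each. Without either G2A MEF library, or without a variance trend, none of the 3 passed; the adjusted p reached 0.504 for Col3a1, 0.393 for Flt1 and 0.551 for Colec12. Of the macrophage genes, Cd68 (adjusted p = 0.75) did not meet this threshold with all libraries, and no test is given for C3ar1 or Csf1r.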

How the results depend on the processing

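Numbers of genes past the threshold depended on the libraries included. In liver 3 genes passed and in MEFs 0; leaving out 1 library gave 0 to 3140 in liver and 0 to 3076 in MEFs, both maxima without G2A liver 3 or WT MEF 3. In liver 6057 passed with library weights and 2 with a replicate block on the sample numbers. In MEFs 3707 passed with the replicate block, in which WT MEF 3 has no partner and drops out of the comparison, and 1028 with DESeq2. For the difference between tissues 239 passed, 19 without a variance trend, 3690 with the replicate block, and 2 to 3262 when 1 library was left out. Among the 9 genes, 142 of 157 tested values under alternatives kept direction and side of the threshold, 9 changed sign and 6 newly passed, and all 36 untested values kept direction. The tested values, and those newly passing, include Csf1r in MEFs and between tissues, which are given here as descriptions. Csf1r in liver, at 0.003, was -0.01 with rescaling, -0.05 without G2A liver 1 or 2, and -0.08 to 0.11 over all livers left out in turn, lowest without WT liver 2. Cd68 in MEFs was 0.55 with the block or without WT MEF 3 and 0.15 without G2A MEF 2, and -0.52 to 0.55 over all libraries left out in turn; its difference between tissues was -0.24 with the block or without WT MEF 3, and up to 0.83 with another library left out. The labels describe littermate pairs of livers but do not say that the numbers mark them; deviations of equal-numbered livers had r of 0.182, -0.0992 and 0.0993, and not every liver correlated best with its own number, so the numbers were not used as pairs. For MEFs the check has no use, since deviations of 2 libraries mirror each other. With the block Csf1r was at 3.72 in MEFs and -3.72 between tissues. It was tested in MEFs only through its G2A libraries, so these are descriptions. F13a1 in liver was 0.95 with a pseudocount of 0.1. C3ar1 in liver gave no value under the stricter filter and in MEFs none without a G2A library. The causes were not tested beyond these constructions. FPKM give no read depth, and 2 G2A MEF libraries limit precision.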
